A study of Mus musculus with 6 samples.

Results

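The transcripts of 39 genes that encode components of tight junctions, adherens junctions and desmosomes were followed in mouse molar epithelium. The genes were chosen by name from the 55487 genes of the deposited table, and they comprise 16 tight junction genes (10 claudins and 6 others), 11 adherens junction genes (4 classical cadherins, 3 catenins, and 3 nectins with afadin), 10 desmosome genes (6 of the plaque and 4 cadherins) and the membrane proteins *Perp* and *Epcam*. RNA-seq was performed on dental epithelium of the mandibular first molar at postnatal day 2.5 (PN2.5), in 3 libraries from *Wnt10a* fl/fl mice (control) and 3 libraries from mice of the genotype *K14-Cre;Wnt10a* fl/fl (cKO). Both groups carry the floxed *Wnt10a* alleles, and Cre under the keratin 14 promoter is present in the cKO group alone, where it recombines them in epithelial cells. Each library was a pool of epithelium, from 4 molars by the design text and from 5 by the methods of the study, and mice of either sex were used. Levels are TPM, a transcript unit scaled to the length of each transcript and to a fixed sum per library.

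The 6 libraries summed to between 983952 and 993946 TPM, and between 20185 and 23203 genes were above 0. How deeply each library was sequenced is unknown from TPM, and precision is limited by having 3 libraries a group. *Wnt10a* itself was at 56.0, 51.2 and 57.9 TPM in control libraries, against 22.7, 21.8 and 32.2 TPM in cKO, without overlap. The keratins *Krt5* and *Krt14*, which define stratifying epithelium, were between 1945 and 3713 TPM. The 8 markers of dental epithelium summed to 6030 to 8783 TPM in control libraries, against 5723 to 8069 TPM in cKO, the 8 endothelial markers to 135 to 171 and 110.1 to 136 TPM, the 14 mesenchymal markers to 4075 to 7989 and 5625 to 6187 TPM, and the 10 blood markers to 1342 to 2003 and 1181 to 1303 TPM. Of the muscle markers, *Acta1*, *Myh3*, *Myh8* and *Myog* were below 0.5 TPM in every library, as was the Schwann cell marker *Sox10*. Over all genes, control replicate 3 and cKO replicate 3 stood nearest to each other (r = 0.965 across genes, which are not independent replicates). Because tissue was pooled, fewer cells of a type and less RNA per cell cannot be told apart.

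Epithelial cells are held together by 3 kinds of junction. In tight junctions, claudins and occludin seal the space between cells and are tied to actin by scaffold proteins such as ZO-1. In adherens junctions, cadherins and nectins bind their partners on the neighbouring cell and are linked to actin by catenins and afadin, and β-catenin also carries the canonical Wnt signal to the nucleus. In desmosomes, desmogleins and desmocollins are anchored by plakoglobin, plakophilins and desmoplakin to keratin filaments, and in teeth they join the ameloblast layer to the stratum intermedium.

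Of the 39 genes, those that met the study's cut-offs for a difference, applied here to a limma fit, both belong to the desmosome. *Dsp* (desmoplakin) and *Pkp1* (plakophilin 1) were lower in the molar epithelium of *K14-Cre;Wnt10a* fl/fl mice, with means at 62.4% and 68.0% of the control means. Of the 10 genes counted as desmosome genes, all 9 that could be tested had a lower mean log2 level in cKO. *Perp*, a desmosomal membrane protein counted apart, had a higher one (log2 fold change 0.07, not called). No tight junction or adherens junction gene among the 39 met these criteria. Of the 39 genes, 33 reached a mean of 1 TPM over the 6 libraries and were tested, and 27 of these had a lower and 6 a higher mean log2 level in cKO. A gene was called when the unadjusted p from limma was below 0.05 and the group means differed by more than 20%, the criteria that the study used. By this rule 2 of the 33 junction genes were called, both lower, where 4.02% of all 13719 tested genes were called (2.47% lower and 1.55% higher). None of the 33 had an adjusted p below 0.05 in limma (Benjamini-Hochberg over all tested genes, lowest value 1.00), a threshold that 0.0146% of all tested genes passed. In 4 of the 33 genes, *Dsp*, *Pkp1*, *Nectin4* and *Ocln*, the cKO libraries all lay below the control libraries, and in 0 of the 33 all above them. Over all tested genes the groups did not overlap in 9.64%, with cKO lower in 6.13% and higher in 3.51%. The median log2 fold change of the 33 genes was -0.20, beside -0.07 over all tested genes, of which 60.3% were lower in cKO.

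**Figure D1:**
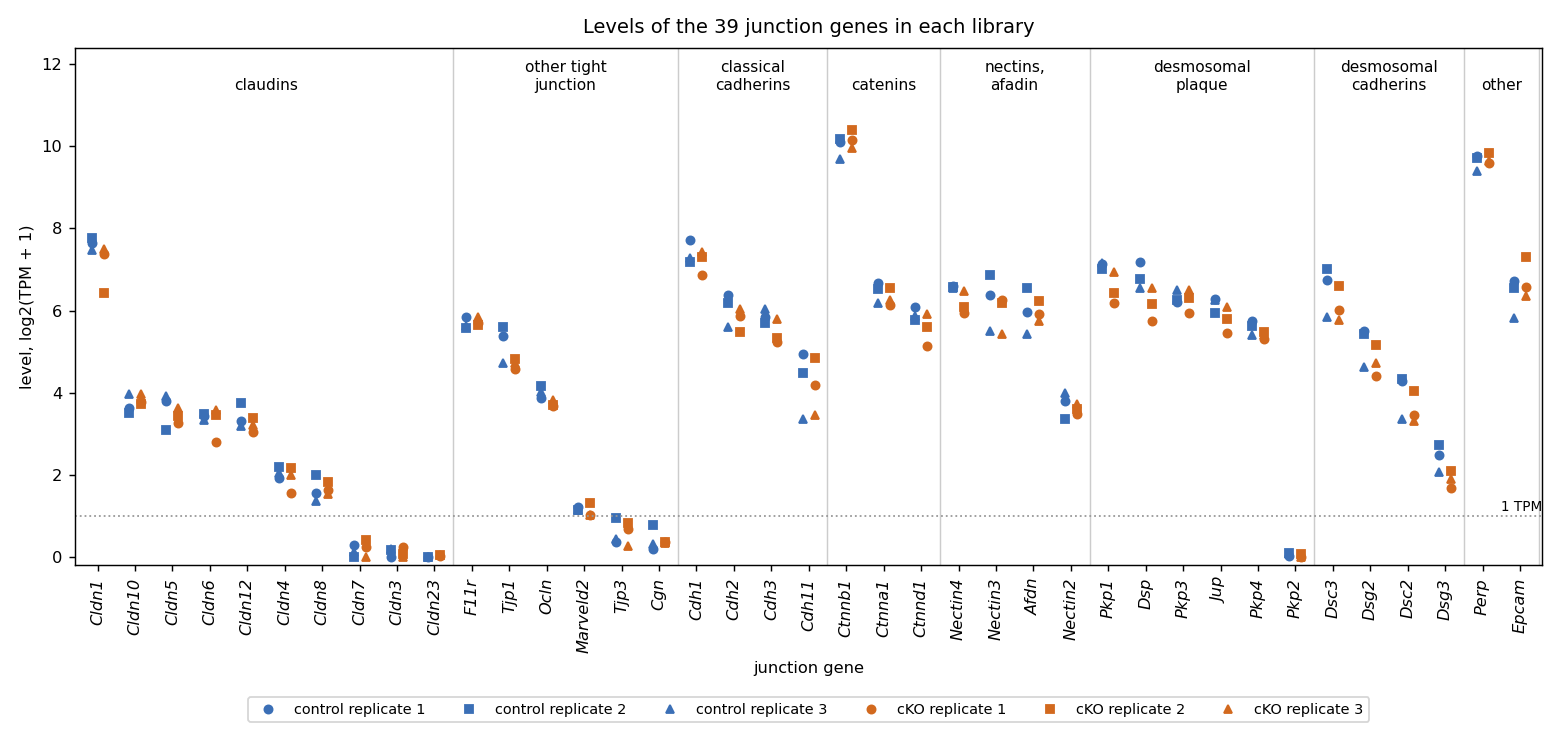
Level of each of the 39 junction genes in each library as log2(TPM + 1), grouped by role and ordered by mean level within a role (blue, control, orange, cKO, with a marker shape for each replicate number), and the dotted line is at 1 TPM. *Ctnnb1* and *Perp* stand above all others, and *Cldn3*, *Cldn7*, *Cldn23* and *Pkp2* lie below 0.5 TPM in every library.

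The claudins of this epithelium were mostly *Cldn1*. *Cldn1*, a barrier claudin of stratified epithelia, had a mean of 198 ± 20.1 TPM (SD, n = 3) in control libraries, and the next claudin, *Cldn10*, which forms ion-selective pores, was at 12.1 ± 2.25 TPM. *Cldn1* made up 80.1 ± 2.27% of the summed claudin TPM in control libraries. *Cldn5*, *Cldn6* and *Cldn12* lay between 5.99 and 14.1 TPM over all libraries, and *Cldn4* and *Cldn8* between 1.57 and 3.60 TPM. *Cldn3* and *Cldn7*, claudins of many simple epithelia, stayed below 0.5 TPM in every library. *Cldn23* was listed at 0 in the 3 control libraries and at 0.02, 0.03 and 0.03 TPM in the cKO libraries, a level at which no fold is given.

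The promoters of *Cldn1* and *Cldn3* are shown because the first is the most abundant claudin here and the second is near 0. Of the 39 genes, 24 were matched by symbol to a table of promoter windows from RefSeq (GRCm38.p6), which holds 34 windows for them, some of 1 gene overlapping. In the 250 bases before the start of transcription, printed 5′ to 3′ on the gene's strand, capitals mark the GC box (GGGCGG or CCGCCC). The *Cldn1* window lies on the minus strand at chr16:26371840-26372089, has 55.6% GC and 14 CpG, and holds 2 GC boxes. The *Cldn3* window lies on the plus strand at chr5:134985964-134986213, has 60.8% GC and 9 CpG, and holds 1.
Cldn1: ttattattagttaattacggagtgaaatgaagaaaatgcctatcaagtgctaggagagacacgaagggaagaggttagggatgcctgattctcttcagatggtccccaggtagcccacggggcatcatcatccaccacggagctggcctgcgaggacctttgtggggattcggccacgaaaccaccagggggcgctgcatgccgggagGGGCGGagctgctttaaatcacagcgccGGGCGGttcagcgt
Cldn3: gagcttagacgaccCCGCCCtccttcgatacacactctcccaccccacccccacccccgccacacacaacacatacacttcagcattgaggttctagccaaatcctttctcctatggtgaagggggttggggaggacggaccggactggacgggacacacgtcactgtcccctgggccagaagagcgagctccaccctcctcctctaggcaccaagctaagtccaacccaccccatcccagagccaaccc
Neither window holds the E-box CAGGTG or CACCTG, the letters that Snail and ZEB repressors bind, nor CCAAT or ATTGG. Over the 34 windows of junction genes, 73.5% held a GC box, 29.4% the E-box and 38.2% CCAAT or its reverse complement. In the 12874 windows of all tested genes these shares were 58.0%, 15.5% and 35.0%, with both strands searched, and the median GC content was 61.4% for junction genes and 60.0% for tested genes. The sets are unlike, because the 34 windows include those of *Cldn3*, *Cldn7*, *Tjp3* and *Cgn*, which were too low to be tested. Windows of *Tjp3* and *Cldn7* are among those with the E-box. These matches describe the letters only, and binding was not measured.

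*Cldn1* lies on chromosome 16 of GRCm38 from 26356642 to 26371841. The control libraries held 199.7, 217 and 177 TPM of it, and the cKO libraries held 164, 84.9 and 180.2 TPM. cKO replicate 2 was far below the other 5 libraries, and cKO replicate 3 lay within the control range. It was not called, with a log2 fold change of -0.53 (SE 0.29), and without cKO replicate 2 it was -0.20. The ameloblast genes, which share the low value of that library, summed to 95859 TPM there and to at least 191000 TPM in each of the other 5. Whether the 2 are related was not tested. *Cldn1* made up 64.0% of the claudin TPM in cKO replicate 2 and between 77.7% and 82.1% in the other libraries, so that its mean share was 74.3 ± 9.05% in cKO.

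*Ocln* encodes occludin, a tight junction membrane protein, and was at 13.7, 17.1 and 15.1 TPM in control libraries, against 11.9, 11.9 and 13.1 TPM in cKO. The groups did not overlap, although the closest values differed by less than the spread of the control libraries. With a log2 fold change of -0.29 (SE 0.17), the unadjusted limma p of 0.133 missed the threshold, and the exact permutation p was 0.1, below which 3 libraries against 3 cannot go. *Tjp1*, which encodes the scaffold ZO-1, was at 40.8, 47.9 and 25.2 TPM in control libraries, against 22.8, 27.5 and 25.3 TPM in cKO. Control replicates 1 and 2 were high and control replicate 3 lay within the cKO range. Its log2 fold change was -0.53 (SE 0.25), and it was not called.

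*F11r*, which encodes the junctional adhesion molecule JAM-A, was at 56.7, 46.9 and 48.2 TPM in control libraries, against 50.6, 49.3 and 56.0 TPM in cKO. The groups covered the same range, with a log2 fold change of 0.04 (SE 0.15). *Cldn5*, the claudin of endothelial cells, was at 13.0, 7.55 and 14.1 TPM in control libraries, against 8.62, 9.73 and 11.5 TPM in cKO, and the cKO values lay inside the control range. All 8 endothelial markers had a lower mean log2 level in cKO (median log2 fold change -0.48), and their part in the *Cldn5* value was not tested. *Marveld2* (tricellulin) was at 1.04 to 1.50 TPM over all libraries, and the plaque genes *Tjp3* (ZO-3) and *Cgn* (cingulin) had means below 1 TPM and were not tested. Over the 11 tested tight junction genes, 8 had a lower mean log2 level in cKO, beside 60.3% of all tested genes. None of the 11 was called, beside 4.02% of all tested genes, and their median log2 fold change was -0.15.

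Among 23 further tight junction genes, 12 were tested, and 2 were called, both lower, beside 4.02% of all tested genes called and 2.47% called lower. *Cgnl1*, which encodes the cingulin paralogue paracingulin, was at 22.4, 19.4 and 12.8 TPM in control libraries, against 8.80, 12.3 and 11.2 TPM in cKO. The groups did not overlap, and control replicate 3 lay close to cKO replicate 2. Its log2 fold change was -0.68 (SE 0.25), with an unadjusted limma p of 0.0285. *Ildr2*, which encodes an angulin of tricellular junctions, fell from 62.2 ± 21.2 to 36.2 ± 6.30 TPM (log2 fold change -0.72, SE 0.29, unadjusted limma p of 0.0401), and its groups overlapped.

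**Figure D2:**
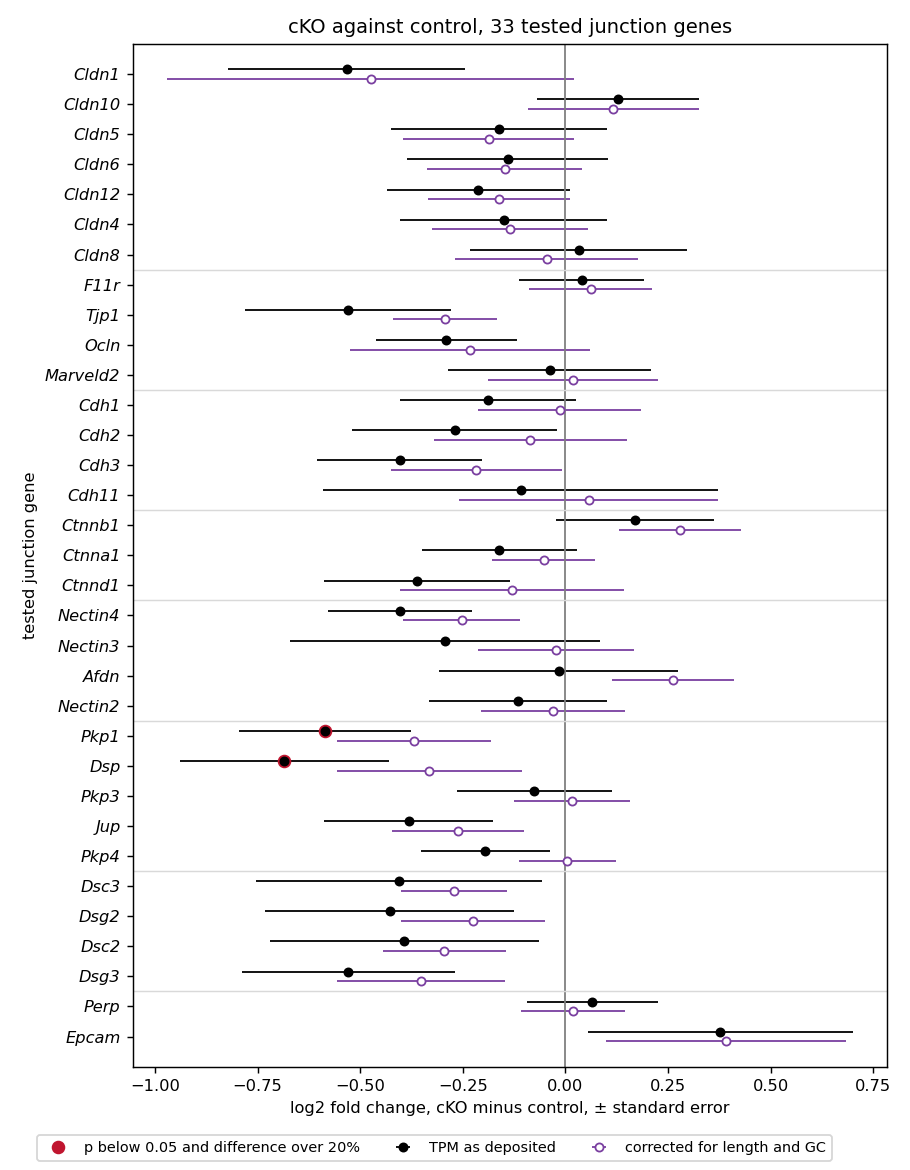
Log2 fold change (cKO minus control) ± standard error of the 33 tested junction genes, from the TPM as deposited (filled) and after a correction for length and GC (open), with the genes called by the criteria as larger red points and grey lines between roles. Only *Pkp1* and *Dsp* are red, and the open points of the desmosome genes lie closer to 0 than the filled ones.

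Of the adherens junction genes, *Ctnnb1* stood far above the rest. *Ctnnb1* encodes β-catenin and lies on chromosome 9 from 120929216 to 120960507. It was at 1100.5, 1164 and 829.8 TPM in control libraries, against 1128, 1349.7 and 991 TPM in cKO, the 129th highest mean of all 55487 genes. cKO replicate 2 was above all control libraries and the other cKO libraries lay within the control range. The gene was not called (log2 fold change 0.17, SE 0.19), and under quantile normalization the log2 fold change was -0.0065. Exons of *Ctnnb1* overlap those of *Ulk4* on the opposite strand by 475 bases, and whether counting used the strand is not given in the sources used here.

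Among the classical cadherins *Cdh1* was the most abundant. *Cdh1* encodes E-cadherin and was at 208, 144 and 154 TPM in control libraries, against 115, 158 and 170.3 TPM in cKO. Control replicate 1 was high and cKO replicate 1 low, and the other 4 libraries lay together. *Cdh1* was not called (log2 fold change -0.19, SE 0.22). *Cdh3* (P-cadherin), its neighbour on chromosome 8 and a cadherin of basal and placodal epithelium, was at 57.3 ± 6.88 TPM in control and 43.6 ± 9.86 TPM in cKO libraries (log2 fold change -0.40, SE 0.20). *Cdh2*, which encodes N-cadherin, was at 82.7, 71.3 and 47.8 TPM in control libraries, against 57.1, 43.4 and 64.3 TPM in cKO, which overlapped. Neither was called, and the log2 fold change of *Cdh2* was -0.27 (SE 0.25).

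*Cdh11*, a cadherin of mesenchymal cells, was at 29.8, 21.2 and 9.34 TPM in control libraries, against 17.1, 27.5 and 9.93 TPM in cKO. The lowest value of each group was in the library numbered 3, and the groups overlapped over their whole range. *Cdh1* took 53.7 ± 3.11% of the TPM of the 4 classical cadherins in control and 55.6 ± 4.14% in cKO libraries, *Cdh2* 21.4 ± 3.75% and 21.0 ± 4.56%, *Cdh3* 18.7 ± 4.34% and 16.4 ± 1.87%, and *Cdh11* 6.22 ± 2.47% and 7.05 ± 3.50%. None of the 4 shares separated the groups. No rise of *Cdh2* or *Cdh11* relative to *Cdh1* was detected in these shares.

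*Ctnna1*, which encodes α-catenin and links cadherins to actin, was at 101, 91.8 and 72.3 TPM in control libraries, against 68.9, 91.9 and 75.1 TPM in cKO, with overlap. *Ctnnd1* (p120-catenin), which holds cadherins at the membrane, was at 59.4 ± 6.42 and 47.0 ± 12.9 TPM, and 1465 bases of its exons are shared on the same strand with the gene model *Gm28635*, so that its reads could be split. Of the nectins, *Nectin4* was at 96.2, 94.2 and 92.8 TPM in control libraries, against 60.8, 66.7 and 88.6 TPM in cKO. The control libraries lay close together and every cKO library was below them, cKO replicate 3 by the least. With a log2 fold change of -0.40 (SE 0.18), the unadjusted limma p of 0.0544 missed the threshold (exact permutation p = 0.1).

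*Nectin3*, a partner of other nectins across the cell boundary, was at 44.7 to 116 TPM in control libraries, against 42.3 to 75.8 TPM in cKO, *Nectin2* at 9.33 to 15.0 and 10.3 to 12.2 TPM, and *Afdn*, which encodes afadin and ties nectins to actin, at 42.3 to 92.1 and 52.9 to 73.8 TPM. All 3 overlapped between the groups. Over the 11 adherens junction genes, all of which were tested, 10 had a lower mean log2 level in cKO, beside 60.3% of all tested genes. None of the 11 was called, beside 4.02% of all tested genes, and their median log2 fold change was -0.19. Their summed level was 1746 ± 273 TPM in control and 1755 ± 196 TPM in cKO libraries, of which *Ctnnb1* alone gave 1031 and 1156 TPM.

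Of 19 further cadherin and adherens junction genes, 15 were tested and 2 were called, both lower (4.02% of all tested genes were called, 2.47% lower). *Ctnnd2* (δ-catenin), a relative of p120-catenin, was at 7.41, 7.89 and 6.07 TPM in control libraries, against 3.57, 2.88 and 5.23 TPM in cKO. Its groups did not overlap (log2 fold change -0.75, SE 0.25, unadjusted limma p of 0.0179). *Cdh5*, which encodes the endothelial VE-cadherin, was at 29.8, 16.3 and 25.4 TPM in control libraries, against 10.3, 12.8 and 17.3 TPM in cKO, with overlap (log2 fold change -0.77, SE 0.28, unadjusted limma p of 0.0288). *Cdh5* is also 1 of the 8 endothelial markers, of which *Tek* was the other one called lower.

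Of the 10 genes counted as desmosome genes, *Pkp1* and *Dsp* had the highest means, and both fell in cKO. *Perp*, counted apart, was more abundant. *Dsp* encodes desmoplakin, the plaque protein that binds keratin filaments, and lies on chromosome 13 from 38151294 to 38198577 with 24 exons. It was at 144.7, 108 and 93.2 TPM in control libraries, against 52.7, 70.8 and 92.4 TPM in cKO. The groups did not overlap, and the 2 libraries numbered 3 were nearly equal. The log2 fold change was -0.69 (SE 0.25, limma unadjusted p of 0.0302 and adjusted p = 1.00). The window before its start, shown because *Dsp* had the largest log2 fold change of the 39 genes, lies on the plus strand at chr13:38151044-38151293, has 72.4% GC and 22 CpG, and holds 4 GC boxes, in capitals.
Dsp: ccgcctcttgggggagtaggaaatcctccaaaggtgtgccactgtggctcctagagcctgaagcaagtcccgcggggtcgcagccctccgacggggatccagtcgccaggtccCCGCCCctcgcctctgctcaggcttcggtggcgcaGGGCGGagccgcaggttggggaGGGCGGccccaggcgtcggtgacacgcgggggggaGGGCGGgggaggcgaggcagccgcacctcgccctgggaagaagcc
Exons of *Dsp* overlap the model *Gm10129* on the opposite strand by 499 bases.

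*Pkp1* encodes plakophilin 1, a plaque protein of stratified epithelia, and lies on chromosome 1 from 135871395 to 135919207 with 14 exons. It was at 140.2, 128 and 142 TPM in control libraries, against 72.0, 85.3 and 122 TPM in cKO. The control libraries lay close together and every cKO library was below them, cKO replicates 1 and 2 by more than cKO replicate 3. The log2 fold change was -0.59 (SE 0.21, limma unadjusted p of 0.0260 and adjusted p = 1.00). In limma fits that left out control replicate 1, cKO replicate 1 or cKO replicate 2, neither *Pkp1* nor *Dsp* was called. *Pkp1* was also not called without control replicate 3 nor *Dsp* without control replicate 2, and without cKO replicate 3 both were called. A correction for transcript length and GC content, given with the lengths, ended both calls and brought *Dsp* to -0.33. *Pkp1* was also not called after median-ratio scaling (unadjusted limma p of 0.0919), nor was *Dsp* when the TPM were tested without the log scale.

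*Pkp1* was a smaller part of the plakophilin transcripts in each cKO library than in any control library. *Pkp1* took 52.8%, 50.9% and 51.8% of the summed plakophilin TPM in control libraries, against 42.0%, 41.2% and 48.3% in cKO. *Pkp3*, a plakophilin of nearly all epithelial desmosomes, took 27.4%, 29.9% and 32.9% in control and 35.4%, 37.7% and 35.3% in cKO libraries. The groups did not overlap in either share, with a difference of -8.01 percentage points for *Pkp1* and 6.05 for *Pkp3* (exact permutation p = 0.1 for each, the lowest possible). A share within 1 library does not depend on how the libraries were scaled. Shares of a family add up to a fixed total, so a fall of *Pkp1* raises the *Pkp3* share, and these differences are not independent. The level of *Pkp3* itself was 79.5 ± 9.47 TPM in control and 75.9 ± 14.2 TPM in cKO libraries, and *Pkp4*, a plakophilin found also at adherens junctions, was at 47.5 ± 5.55 and 41.2 ± 2.40 TPM. *Pkp2*, the plakophilin of heart and simple epithelia, was below 0.1 TPM in every library.

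**Figure D3:**
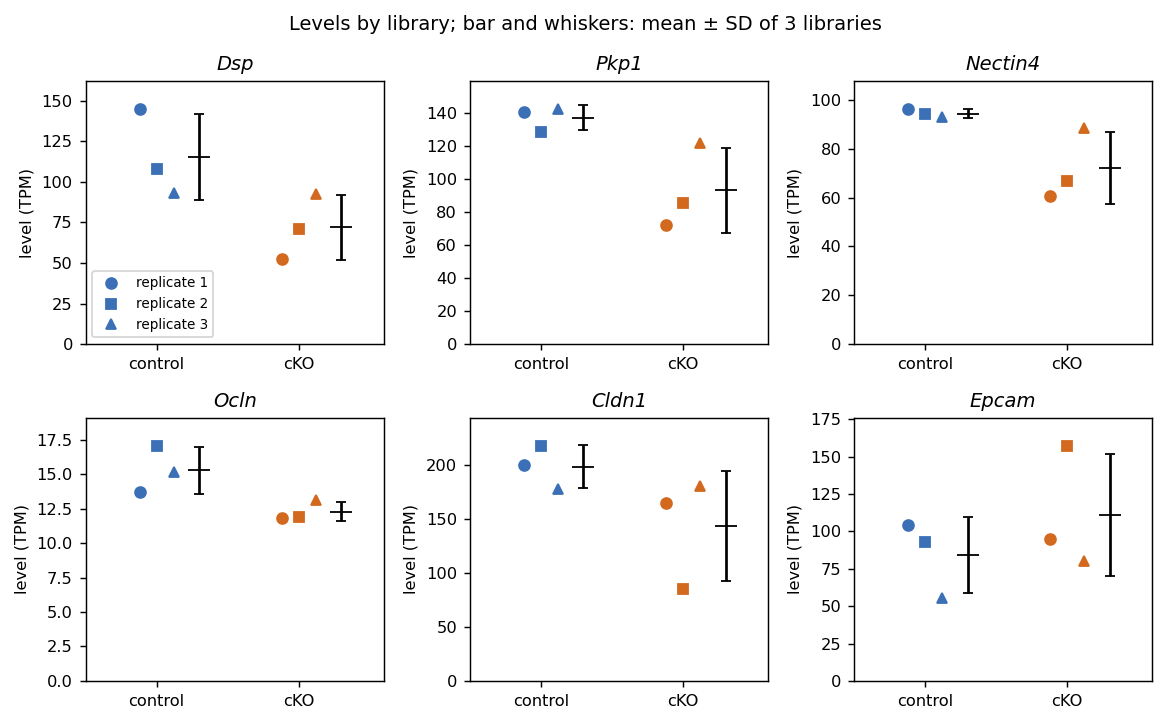
Level in TPM of 6 junction genes in each library, with the mean ± SD of the 3 libraries of a group as bar and whiskers. The groups do not overlap for *Dsp*, *Pkp1*, *Nectin4* and *Ocln* and overlap for *Cldn1*, where cKO replicate 2 is at 84.9 TPM, and for *Epcam*.

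*Jup* encodes plakoglobin, which joins desmosomal cadherins to desmoplakin and also occurs in adherens junctions. It was at 70.9 ± 9.30 TPM in control and 54.7 ± 11.9 TPM in cKO libraries (log2 fold change -0.38, SE 0.21). The 4 desmosomal cadherin genes lie in 1 cluster on chromosome 18. *Dsc3* (desmocollin 3), the most abundant, was at 106, 129 and 56.1 TPM in control libraries, against 63.4, 96.2 and 53.3 TPM in cKO. The libraries numbered 3 were the lowest of their groups, and the groups overlapped. The log2 fold changes were -0.41 for *Dsc3*, -0.43 for *Dsg2*, -0.39 for *Dsc2* and -0.53 for *Dsg3*, and their unadjusted limma p lay between 0.0794 and 0.282. These values turned on single libraries. Without control replicate 3 all 4 genes were called, at -0.75 to -0.71, while without control replicate 2 *Dsc3* was at -0.16 and *Dsc2* at -0.22, and without control replicate 1 or cKO replicate 1 *Dsg2* was at -0.27 or -0.25.

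The makeup of the desmosomal cadherins did not separate the groups, with *Dsc3* at 62.5 ± 2.80% of their TPM in control and 63.1 ± 3.75% in cKO libraries, *Dsg2* at 24.3 ± 2.32% and 24.2 ± 3.60%, *Dsc2* at 10.2 ± 0.476% and 10.2 ± 0.275%, and *Dsg3* at 2.99 ± 0.424% and 2.51 ± 0.462%. The 10 desmosome genes together summed to 661, 616 and 535 TPM in control libraries, against 363, 482 and 501 TPM in cKO. Every cKO sum was below every control sum, and cKO replicate 1 was the lowest. These sums leave out *Perp*, also a membrane protein of desmosomes, which was counted apart. Its level exceeded them, at 795 ± 110 TPM in control and 828 ± 70.2 TPM in cKO libraries, with overlap. The median log2 fold change of the 9 tested desmosome genes was -0.41, and all 8 markers of dental epithelium also had a lower mean log2 level in cKO (median -0.21, 0 called). So did all 6 ameloblast markers (median -0.50, and -0.56 after the length and GC correction, 0 called) and all 9 tested blood markers (median -0.31, 1 called). Of the 14 mesenchymal markers, 7 did (median 0.01, and 0.16 after the correction). The 1 of them that was called, *Bglap*, was higher in cKO without overlap, at 473 ± 126 TPM in control and 837 ± 219 TPM in cKO libraries. Over all tested genes, 60.3% had a lower mean log2 level in cKO and 4.02% were called. The part of these markers in the desmosome result was not tested.

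Of 8 further desmosome and cornified envelope plaque genes, 5 were tested. All 5 had a lower mean log2 level in cKO, beside 60.3% of all tested genes. Their median transcript length was 5725 bases, and 80.5% of the tested genes over 4000 bases were lower. The 1 gene called, beside 4.02% of all tested genes called and 2.47% called lower, was *Ppl*. It encodes periplakin, a plakin that binds keratin and the cell membrane. It was at 19.1, 17.7 and 11.8 TPM in control libraries, against 8.49, 10.9 and 11.4 TPM in cKO, and the groups did not overlap, although control replicate 3 and cKO replicate 3 lay close together. Its log2 fold change was -0.60 (SE 0.24), with an unadjusted limma p of 0.0380. Without control replicate 1 or without cKO replicate 1, none of *Cgnl1*, *Ildr2*, *Ctnnd2*, *Cdh5* and *Ppl* was called. *Cdh5* was also not called without control replicate 3, *Cgnl1* and *Ppl* without cKO replicate 3, *Ildr2*, *Ctnnd2*, *Cdh5* and *Ppl* without cKO replicate 2, and all but *Cdh5* without control replicate 2.

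**Figure D4:**
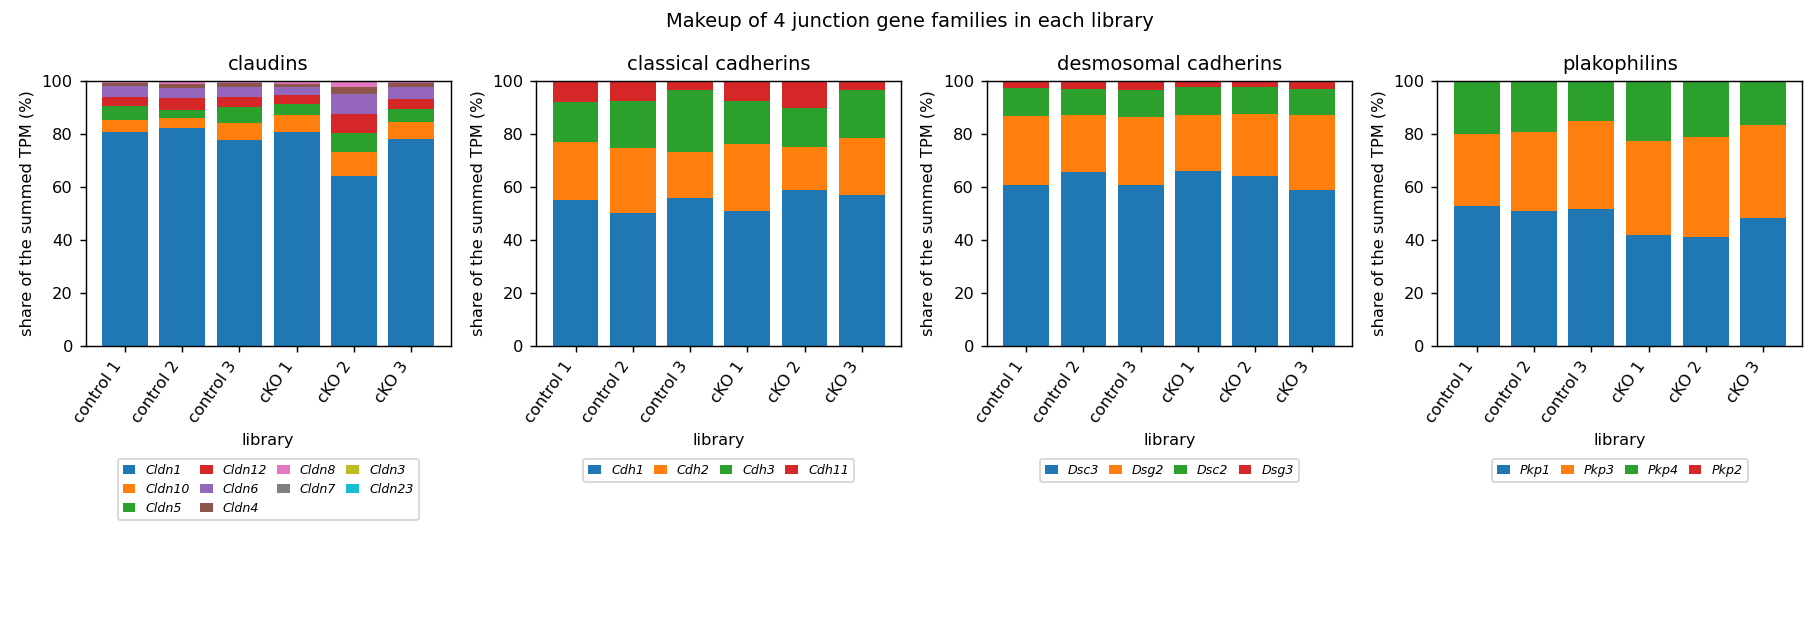
Share of each member in the summed TPM of its family, in percent, for the claudins, the classical cadherins, the desmosomal cadherins and the plakophilins, with 1 stacked bar per library. *Cldn1* is at 64.0% in cKO replicate 2, and the share of *Pkp1* is lower in each cKO library than in any control library.

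*Perp* and *Epcam* had higher mean log2 levels in cKO, and neither was called. *Perp*, a membrane protein of desmosomes and a target of p63, was at 871, 843 and 669 TPM in control libraries, against 775, 907 and 801 TPM in cKO. The groups overlapped, with a log2 fold change of 0.07 (SE 0.16) that turned to -0.0820 under quantile normalization. *Epcam*, an epithelial adhesion molecule that stabilises claudins, was at 104, 93.2 and 55.8 TPM in control libraries, against 94.6, 157 and 80.5 TPM in cKO. cKO replicate 2 was high and control replicate 3 low, and the others overlapped (log2 fold change 0.38, SE 0.32).

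Across the 33 tested genes the libraries were not equally placed. cKO replicate 1 was the lowest library for 18 genes and the highest for 0, and control replicate 1 was the highest for 11 and the lowest for 0. The median deviation of the 33 genes from their means on the log2 scale was -0.26 in cKO replicate 1 and 0.25 in control replicate 1, beside -0.10 and 0.07 over all tested genes. In cKO replicates 2 and 3 it was 0.02 and -0.01. Without cKO replicate 1, 22 of the 33 genes had a lower mean log2 level in cKO and the median log2 fold change was -0.13, and without control replicate 1 these were 27 genes and -0.13.

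The differences also moved with transcript length. Over all tested genes, in 10 groups by the length of the longest annotated transcript, the median log2 fold change went from 0.18 in the shortest group (median 558 bases) to -0.29 in the longest (median 7996 bases). Junction genes have long transcripts, with a median of 4052 bases beside 3161 over all tested genes, and that of *Dsp* has 9592. All 17 junction genes over 4000 bases had a lower mean log2 level in cKO (median -0.39), where 80.5% of the 4784 tested genes of that length did (median -0.20). Of the 16 shorter junction genes, 10 were lower (median -0.10), beside 49.4% of all genes of that length (median 0.00).

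Once each library was corrected for the length and GC content of transcripts, 23 of the 33 junction genes were lower and 10 higher in cKO, beside 49.6% lower over all genes. The median was then -0.13 for the junction genes and 0.00 for all genes, and 0 junction genes were called or had an unadjusted limma p below 0.05, while 4.52% of all genes were called. The log2 fold change of *Dsp* was then -0.33 (SE 0.23) and that of *Pkp1* -0.37 (SE 0.19), with unadjusted limma p of 0.185 and 0.0902. The desmosome genes kept a median of -0.27 with 7 of 9 lower, the adherens junction genes had a median of -0.03, and the tight junction genes one of -0.15. Of the further junction genes, *Cgnl1* was still called (unadjusted limma p of 0.0411), and *Ildr2*, *Ctnnd2*, *Cdh5* and *Ppl* were not. *Dsg1a* (desmoglein 1), a desmosomal cadherin of the upper layers of stratified epithelia that was singled out after its values were seen, was not called from the deposited TPM, at -0.65 (SE 0.36), and was called after the correction, at -0.50 (SE 0.13, unadjusted limma p of 0.00494). Its level was 17.9, 23.3 and 8.88 TPM in control libraries, against 9.01, 12.9 and 7.40 TPM in cKO, with overlap, and its reads could be split with those of its close paralogues. The plakophilin shares still did not overlap, with a difference of -6.61 percentage points for *Pkp1* and 4.24 for *Pkp3*. The summed desmosome levels, 558 ± 53.6 in control and 474 ± 62.4 in cKO libraries, then overlapped. What gave the libraries their relation to length was not tested.

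**Figure D5:**
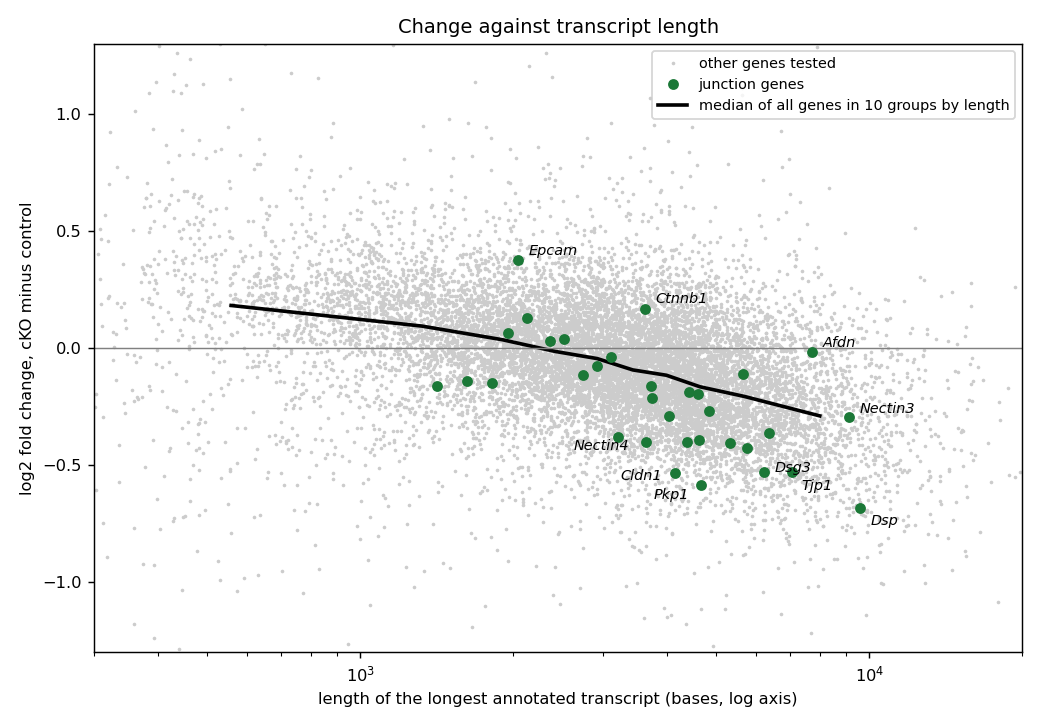
Log2 fold change (cKO minus control) against the length of the longest annotated transcript in bases (log axis) for the 33 tested junction genes (green) and 13247 other tested genes (grey, 427 more lie outside the axes), with the median of all genes in 10 groups by length as a black line. The line falls from 0.18 to -0.29, and *Dsp*, *Tjp1*, *Dsg3* and *Pkp1* lie below it.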

How the data were processed

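RNA-seq of dental epithelium of the mandibular first molar at PN2.5 gave 6 libraries, and groups and replicate numbers were taken from the sample titles. The authors used SeqPrep and Sickle for trimming, HISAT2 for alignment and RSEM for quantification, while the submitters' processing notes name HISAT2 and StringTie. The authors deposited 1 TPM value per gene and library. The methods name FPKM, but the columns have nearly equal sums, as TPM do. Genome build, annotation and strand setting are not given in the sources used here. Gene positions, types and lengths came from GENCODE M21 (GRCm38), which holds 55227 of the 55487 gene identifiers.

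The deposited TPM were taken as log2(TPM + 1), genes averaging under 1 TPM were left out, 13719 remained, and cKO was compared with control in limma 3.58.1 (R 4.3.3, lmFit, eBayes with a mean-variance trend, no block). This scale understates the change of low genes. Calls follow the study's cut-offs, an unadjusted p below 0.05 and a difference above 20% of the control mean. The p came from limma, except where Student's test is named. The Benjamini-Hochberg adjustment runs over all tested genes. Single values were compared by two-sided exact permutation, which cannot go below 0.1. The p-values measure the spread between these pooled libraries. Shares are of the summed TPM of a family, and no other per-sample columns were present. The length and GC correction fits natural splines with 4 degrees of freedom to each library's deviations and covers 13707 genes. The fit was also run on simulated data with independent noise for each gene and larger shifts than those of the junction genes. These data held no relation to length and no deviation shared by the genes of a library, so they do not bear on calls that moved with either.

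The members, the other gene lists and the tests were chosen with earlier results of these data known. Values in every library are given for members called or without overlap, for the 3 most abundant members of each junction type, and for *Cdh1*, *Cdh2*, *Cdh11*, *Ctnnb1*, *Cldn1*, *Cldn5*, *Ocln*, *Tjp1*, *Dsp*, *Epcam* and *Perp*. From other lists, called genes are named. The alternatives were a pseudocount of 0.1, no filter, quantile normalization, median-ratio scaling, a sum over protein-coding genes that leaves out *Amelx* and *Ambn*, the correction, the replicate number as a block with and without it, no trend, Student's test on the TPM and leaving out each library. Leaving out both libraries numbered 3, and the corrected shares and sums, were added after seeing the data. Protein sequences were not used here.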

Additional observations from a re-analysis of the deposited data

How the results depend on the processing

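The median log2 fold change of the tested junction genes stayed below 0 under all 17 alternative fits, between -0.33 and -0.13. The 5 family shares were followed under a floor of 1 TPM, the correction and leaving out each library. Their differences moved by less than the spread between libraries. For *Cldn1* that spread rests largely on cKO replicate 2, at 64.0%, beside 80.8% and 78.2% in cKO replicates 1 and 3 and a control mean of 80.1%. The count of called junction genes, 2, was less stable. It was 5 after rescaling to the protein-coding sum that leaves out *Amelx* and *Ambn* (*Dsg3*, *Dsp*, *Nectin4*, *Pkp1* and *Tjp1*), 0 after the length and GC correction and 1 by Student's test (*Pkp1*). It ranged from 0 to 7 when 1 library was left out, with 6 without control replicate 3, 7 without cKO replicate 3, 1 without control replicate 2, and 0 without control replicate 1, cKO replicate 1 or cKO replicate 2. Without both libraries numbered 3 it was 6. In the other junction, polarity, gap junction and regulator lists 7 genes were called, and 3 after the correction (*Cgnl1* and *Esrp2*, which are among the 7, and *Dsg1a*, which is not), 3 by Student's test (*Ctnnd2*, *Esrp2* and *Zeb1*), 1 to 11 when 1 library was left out, and 14 without both libraries numbered 3. Of all genes, 552 were called (213 higher), 649 after quantile normalization (324 higher), 755 after the protein-coding rescaling (104 higher), 940 without a filter, 204 to 1159 with 1 library left out, and 1220 without both libraries numbered 3. The causes were not tested.

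The methods of the study describe 3 pairs of biological replicates, and what paired them is not stated. Same-numbered libraries deviated from their group means with r = -0.08, 0.29 and 0.40 over genes (numbers 1, 2 and 3 in turn). Control replicates 2 and 3 correlated best with their own number, and control replicate 1 did not. Whether the numbers mark the pairs is unknown, so the main fit used no block and the blocked fit is given beside it. With the replicate block, 1315 genes (9.59% of those tested), 7 junction genes (*Cdh3*, *Dsc3*, *Dsg3*, *Dsp*, *Nectin4*, *Pkp1* and *Tjp1*) and 12 genes of the other lists were called. With the block and the correction together these were 1110, 3 and 7, and the 3 junction genes were *Pkp1*, lower, and *Ctnnb1* and *Epcam*, higher.

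Direction was followed over all 17 alternatives for 25 genes picked from those described here, and 23 of them kept it. *Ctnnb1* reversed under quantile normalization (-0.0065), and *Perp*, which ranged from -0.0538 to 0.14 with 1 library left out, reversed under quantile normalization (-0.0820), without control replicate 3 (-0.0538), without cKO replicate 2 (-0.0025) and without both libraries numbered 3 (-0.0321). Outside these 25, the log2 fold change of *Afdn* went from -0.02 to 0.26 after the length and GC correction. Those of *Cdh11*, *Marveld2*, *Pkp3*, *Pkp4* and *Ctnna2* also turned from negative to positive with it. TPM keep no depth, so no limit from counting can be given.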

Other observations

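None of the apical-basal polarity genes and gap junction genes that were tested was called. The 13 tested polarity genes encode the PAR, Crumbs and Scribble complexes that position the junctions. Of these, 10 had a lower mean log2 level in cKO, beside 60.3% of all tested genes. Their median log2 fold change was -0.07, the same as over all genes, and 0 were called. *Pard3*, which encodes the PAR complex scaffold, was at 97.7 ± 13.6 TPM in control libraries, against 95.8 ± 11.8 TPM in cKO. Of the gap junction genes, 6 were tested and 0 called, beside 4.02% of all tested genes called. The most abundant connexin gene was *Gja1* (connexin 43), which passes ions and small molecules between cells, at 904, 866 and 618 TPM in control libraries, against 587, 699 and 602 TPM in cKO, with overlap (log2 fold change -0.32, SE 0.19). These genes were named after their values were seen.

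Among 19 transcription factors and splicing regulators that act on epithelial junction genes, 17 were tested and 2 were called, both lower, beside 4.02% of all tested genes called and 2.47% called lower. *Esrp2*, an epithelial splicing regulator, was at 14.8, 23.0 and 15.5 TPM in control libraries, against 8.85, 9.51 and 8.98 TPM in cKO. The highest cKO library was far below the lowest control library. The log2 fold change was -0.86 (SE 0.21, limma unadjusted p of 0.00461 and adjusted p = 1.00). It lay between -0.97 and -0.67 under all 17 alternative fits with an unadjusted p below 0.05 in each, and after the length and GC correction it was -0.72. Exons of *Esrp2* overlap *Nfatc3* and *1810019D21Rik* on the opposite strand, by 219 and 119 bases. Its paralogue *Esrp1* was at 42.6 ± 11.6 TPM in control libraries, against 37.5 ± 6.06 TPM in cKO. *Zeb1*, a repressor of E-cadherin, was at 4.02, 2.81 and 3.41 TPM in control libraries, against 1.23, 2.28 and 0.96 TPM in cKO, without overlap (log2 fold change -0.85, SE 0.28, unadjusted limma p of 0.0190). Its unadjusted p was below 0.05 in 11 of the 17 alternative fits and lay between 0.00597 and 0.0814 over them. *Zeb1* was not called after the length and GC correction (-0.67, unadjusted limma p of 0.0523), with or without the replicate block, nor without control replicate 1, cKO replicate 1, cKO replicate 3 or both libraries numbered 3. *Snai1*, *Snai2*, *Twist1* and *Twist2*, which repress the same gene, were not called.

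*Ctnna2*, known as the α-catenin of neurons, was more abundant in these libraries than *Ctnna1*. It was at 431, 379.7 and 259 TPM in control libraries, against 332, 346 and 308 TPM in cKO, while *Ctnna1* was between 68.9 and 101 TPM. The groups overlapped (log2 fold change -0.09, SE 0.21). This gene was singled out after its values were seen, and which cells its transcripts came from was not tested.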
